A study of Mus musculus with 21 samples.

Results

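The lysosome is the acidic compartment in which a macrophage breaks down what it has taken up, engulfed particles included. Its lumen holds cathepsins and other proteases, enzymes that remove sugars and sulfate from glycans, and enzymes that split lipids, many of which work best at low pH. The acid comes from the vacuolar proton pump, whose V1 sector in the cytosol splits ATP and whose V0 sector in the membrane carries the protons. Lamp1 and Lamp2 line the membrane, the channel protein encoded by Mcoln1 releases calcium, and the transcription factor TFEB binds E-box motifs in the promoters of many of these genes.

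The genes described here are a list of 42 that encode lysosomal proteases, other acid hydrolases, membrane proteins and regulators, and subunits of the proton pump. Membership was set by gene symbol and not by measured values. Probe sets that map to a single symbol were kept, and of those of one gene the brightest on average over all arrays was used, which gave 39 of 42 genes, out of 12393 genes measured in that way. Arsb, Atp6v0c and Atp6v0d2 had no such probe set and were not analysed here. The 39 comprised 11 proteases, 7 enzymes acting on sugar chains, 5 genes of lipid degradation, 5 membrane proteins and regulators, and 11 pump genes. These role groups follow textbook function and were drawn up with earlier results of these data known.

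The study exposed RAW 264.7 cells, a mouse macrophage-like tumour line, to amorphous silica for 2 h in serum-free medium. Particles of 10 nm were given at 5, 20 and 50 µg/ml and those of 500 nm at 250, 500 and 1000 µg/ml, doses named low, mid and high here. The control was untreated cells, for which the labels give no change to serum-free medium. There were 3 arrays in each of 7 groups, 21 in total, and the labels do not say that these were separate cultures, so p-values measure the spread between arrays, which may be technical.

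A value below is a log2 expression value of one array, and a log2 change is the difference between the means of 3 arrays and 3 arrays, given with its standard error. A gene was called higher or lower when its limma p-value, adjusted over all 12393 genes by the Benjamini-Hochberg method, was below 0.05. Where a call is said to remain or end without 1 array, each of the 6 arrays of that comparison was left out in turn. The 6 comparisons of a dose with untreated cells share the same 3 untreated arrays. Arrays of a bulk culture cannot tell fewer cells from less RNA per cell.

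The cell type was checked with markers of macrophages and of other cells. Of 9 macrophage markers measured, 7 lay above the 75th percentile of gene brightness, Cd68, Csf1r and Lyz2 among them, although brightness also depends on the probe. No marker of epithelial cells, fibroblasts, B or T cells, dendritic cells or neutrophils reached that level, and all of those lay below the median gene. The osteoclast list, which shares Acp5 with the lysosome, had 1 of 8 markers above it. Its summed linear level was 1175 to 1227 in untreated cells, 1091 to 1302 at the 10 nm high dose and 1345 to 1473 at the 500 nm high dose. The macrophage list summed to 31475 to 34686, 29361 to 32184 and 28836 to 30779 in the same groups. The part of these shifts in the lysosomal results was not tested.

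Replicate 3 had the narrowest spread of values in all 7 groups, and array SDs ran from 2.41 to 2.64. In the excess of 3′ over 5′ probe sets for Actb and Gapdh, a measure of RNA integrity and labelling, untreated replicate 3 stood at 1.15 and 10 nm high-dose replicate 3 at 0.95, while no other array was above 0.55. These arrays stand apart, so several results that rest on either are also given without it or with its place noted. Their part in the other results was not tested. The mean SD was 2.62 in untreated cells, 2.50 at the 10 nm high dose and 2.54 at the 500 nm high dose, and rescaling the arrays to a common SD moved many calls.

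The E-box that TFEB and related factors bind was looked up in RefSeq promoter windows (GRCm38.p6, 250 bases before to 50 after the transcription start), which were found for 34 of the 42 genes. The motif TCACGTGA reads the same on both strands. It was present in 7 of 34 genes (20.6%), Atp6v0d1, Atp6v0e, Atp6v1a, Ctsa, Ctsd, Gla and Mcoln1, against 1.12% of 27025 genes with a window. The shorter TCACGTG on either strand, which includes it, was present in 12 of 34 (35.3%) against 4.29%, and the core CACGTG in 13 of 34 (38.2%) against 8.09%. A longer palindrome that contains TCACGTGA was also looked up. It was present in 0 of 34 against 0.37% of all genes with a window. With so rare a form, its absence from 34 genes does not separate them from the rest. The motifs were chosen after expression values had been seen, and a match describes the sequence, not a bound site. No gene of lipid degradation with a window held CACGTG. The stretches below show how the motif sits in genes of the other roles, written 5′ to 3′ on the gene's strand, with capitals for TCACGTG on either strand:
Gla, chrX:134601186-134601245, minus strand, 240 to 181 bases upstream: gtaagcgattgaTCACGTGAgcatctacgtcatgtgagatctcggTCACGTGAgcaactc
Mcoln1, chr8:3500439-3500488, plus strand, 80 to 31 bases upstream: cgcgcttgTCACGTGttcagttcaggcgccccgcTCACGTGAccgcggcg
Ctsd, chr7:142387908-142387937, minus strand, 110 to 81 bases upstream: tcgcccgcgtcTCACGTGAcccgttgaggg
Atp6v1a, chr16:44139373-44139402, minus strand, 143 to 114 bases upstream: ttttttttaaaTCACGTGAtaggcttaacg
Ctsa, chr2:164833748-164833772, plus strand, 25 to 1 bases upstream: atgagcaaactgTCACGTGAtgcag
Lamp1, chr8:13159091-13159160, plus strand, 70 to 1 bases upstream: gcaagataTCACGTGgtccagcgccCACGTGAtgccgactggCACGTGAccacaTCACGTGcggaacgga
In these stretches Gla shows a pair of full palindromes, Mcoln1 a full and a shorter copy, and Lamp1 4 of the shorter form and no full palindrome. The windows of Ctsa and Ctsd also hold a further copy outside the stretch shown, a full palindrome in Ctsa and the shorter form in Ctsd.

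After 2 h of silica the lysosomal genes did not move as a block. Ctsl, Grn and the pump gene Atp6v1b2 were called higher at the 10 nm high dose, and Ctsh, Ctss and Lipa lower. At the 500 nm high dose Gla and 3 pump genes were called higher, and Ctss, Man2b1, Gusb, Asah1 and Lamp2 lower. With 10 nm particles 0, 2 and 6 of 39 genes were called at the low, mid and high dose, and with 500 nm particles 0, 1 and 9 of 39. The share of all genes called was 0.767%, 10.6% and 20.2% with 10 nm particles and 0.428%, 2.77% and 15.3% with 500 nm particles. By direction, 3.22% were higher and 7.39% lower at the 10 nm mid dose, and 1.26% and 1.51% at the 500 nm mid dose. The lysosomal share was 15.4% at the 10 nm high dose (3 higher, 3 lower; all genes 7.58% higher and 12.6% lower) and 23.1% at the 500 nm high dose (4 higher, 5 lower; all genes 5.31% and 10%). Whether these shares differ from those of all genes was not tested, and their order turned with the setting. After centring, 7 of 39 were called at the 10 nm mid dose against 9.92% of all genes. After rescaling, 13 of 39 were called at the 10 nm high dose against 21.2%. At the 500 nm high dose a fit of only the 2 groups called 1 of 39 against 6.14%. At the low doses limma called 0 of 39. An unadjusted p below 0.05 was found for 0 and 2 of 39, against 866 and 738 of all 12393 genes. Averaging all probe sets of a gene called 1 gene at the low dose of each size, and array weights called 1 and 2. Of all genes averaging called 0.831% and 0.476%, and array weights 9.84% and 2.99%.

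**Figure D1:**
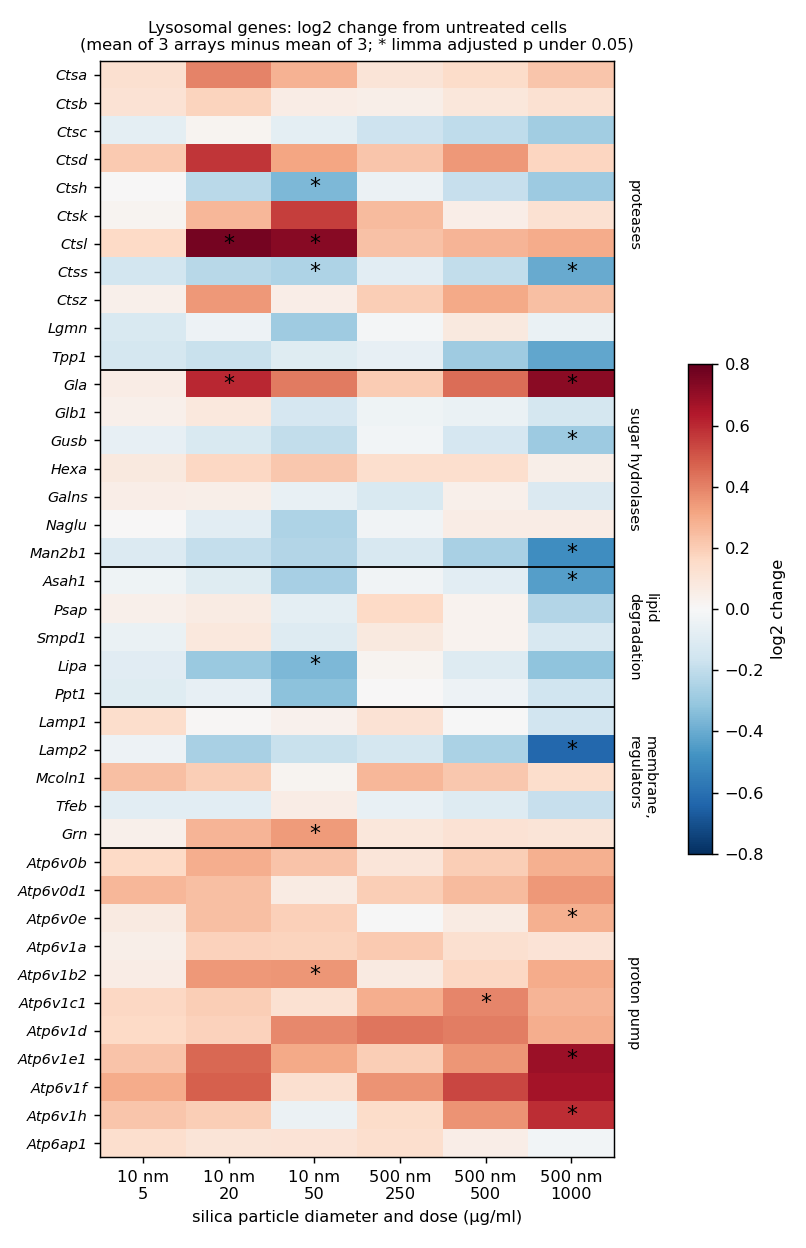
Log2 change from untreated cells (colour, red higher and blue lower) of the 39 lysosomal genes, in rows grouped by role, at each particle diameter and dose in µg/ml, in columns; each cell is the mean of 3 arrays minus the mean of 3 untreated arrays and a star marks a limma adjusted p under 0.05. The 11 pump genes are mostly red in every column, and the stars lie almost all in the mid and high 10 nm and the high 500 nm columns.

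The median log2 change of the 39 genes was 0.05, 0.17 and 0.05 with rising 10 nm dose and 0.09, 0.07 and 0.06 with rising 500 nm dose. Without untreated replicate 3 the medians were 0.00, 0.05 and 0.00, and 0.01, -0.02 and -0.13, so neither size nor sign of this median held without that array. Over all genes the median, with all arrays, was 0.03, 0.03 and 0.04, and 0.00, 0.02 and 0.07. Median-centring of the arrays raised the median of all genes to 0.11 at the 10 nm mid dose, 0.14 at the 10 nm high dose and 0.17 at the 500 nm high dose. The split of calls moved with it. The 10 nm high dose had 9 higher and 0 lower after centring, 5 and 1 after quantile normalization, and 13 and 0 after rescaling to a common SD. The 500 nm high dose had 7 and 4, 4 and 5, and 11 and 0 under those settings. Of all genes 23.8%, 15.8% and 21.2% were called at the 10 nm high dose, and 16.9%, 13.2% and 18.3% at the 500 nm high dose. The 39 genes were bright, with a median percentile of 93.2 among all genes and 32 of 39 above the 75th percentile. On arrays of narrower spread, as those of the high doses were on average, rescaling moves values above the array median further up. Calls gained, lost or turned after rescaling are therefore not independent of brightness, and its part in them was not tested.

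Replicate numbers were taken as pairing the arrays, from the data, in the 10 nm mid-dose and high-dose comparisons with untreated cells. At the high dose only replicate 3 correlated best with its own number. Replicates 1 and 2 each correlated best with the other number, so pairing there is an assumption. With the number as a block, 10 genes were called at the mid dose (9 higher, 1 lower) and 15 at the high dose (8 higher, 7 lower). The block also raised the share of all genes called, to 18% at the mid dose and 36.7% at the high dose. The block added Ctsa, Ctsd, Grn, Atp6v0b, Atp6v0e, Atp6v1b2 and Atp6v1e1 as higher and Lipa as lower at the mid dose (limma adjusted p 0.00599 to 0.0498). At the high dose it added Ctsk, Gla, Atp6v0b, Atp6v1d and Atp6v1e1 as higher and Naglu, Asah1, Man2b1 and Ppt1 as lower (0.00137 to 0.0494). Statements below that a gene was not called refer to the fit of all arrays with group as the only factor, without the alternative settings. With only replicates 1 and 2 of every group, which leaves out both arrays that stand apart, 3 genes were higher and 0 lower at the mid dose, 5 higher and 0 lower at the high dose, and 4 higher and 3 lower at the 500 nm high dose. Of all genes 9.18%, 18.1% and 13.3% were called with these replicates. Without any 1 of 10 nm high-dose replicates 2 and 3 and untreated replicates 1 and 2, the high-dose count was 2 or 3. At the mid dose it was 1 without 10 nm replicate 1, 10 nm replicate 2 or untreated replicate 2, and 4 without 10 nm replicate 3. At the 500 nm high dose it was 6 without untreated replicate 3.

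Of the 11 proteases, 1 was higher at the 10 nm mid dose, 1 was higher and 2 lower at the 10 nm high dose, and 1 was lower at the 500 nm high dose. Over all genes 10.6%, 20.2% and 15.3% were called at those doses. The median log2 change of the proteases was 0.18, 0.05 and 0.12 there. Ctsl encodes cathepsin L, a cysteine protease that digests proteins and processes other cathepsins. Its values were 11.33, 11.31 and 10.71 in untreated cells, 11.97, 11.99 and 11.68 at the 10 nm mid dose and 11.95, 11.96 and 11.61 at the 10 nm high dose. At the 10 nm low dose they were 11.19, 11.51 and 11.12, and after 500 nm particles they were 11.29, 11.51 and 11.25 at the low, 11.29, 11.53 and 11.34 at the mid and 11.46, 11.60 and 11.18 at the high dose. Every array of the 10 nm mid and high doses lay above the untreated arrays, and the groups overlapped at the 10 nm low dose and at all 3 doses of 500 nm. Ctsl rose by 0.77 ± 0.17 at 20 µg/ml (1.70-fold, limma adjusted p = 0.00379) and by 0.73 ± 0.17 at 50 µg/ml (1.65-fold, adjusted p = 0.00412). Both calls remained without any 1 array.

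Ctss encodes cathepsin S, a cysteine protease of antigen-presenting cells that trims the invariant chain of class II molecules. Its values were 12.75, 12.79 and 12.85 in untreated cells, 12.48, 12.51 and 12.66 at the 10 nm high dose and 12.38, 12.44 and 12.36 at the 500 nm high dose. The intermediate groups ran from 12.51 to 12.77. All 6 high-dose arrays lay below the untreated ones, as did the 3 arrays of the 10 nm low dose (12.62, 12.64 and 12.69) and of the 10 nm mid dose (12.60, 12.56 and 12.58). The 3 arrays of the 500 nm mid dose (12.60 ± 0.090; SD, n = 3) also lay below them. Ctss fell by 0.40 ± 0.083 at the 500 nm high dose (limma adjusted p = 0.00213), a call lost after rescaling (-0.13, adjusted p = 0.539). The change at the 10 nm high dose was -0.25 ± 0.083 (adjusted p = 0.0427). That call ended under quantile normalization (adjusted p = 0.0672), under centring (0.238) and without any 1 array except 10 nm replicate 3 (0.0671 to 0.114), and after rescaling the sign turned (0.13, adjusted p = 0.525).

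Ctsh encodes cathepsin H, which removes amino acids from the ends of peptides. Its values were 10.69, 10.66 and 10.48 in untreated cells, 10.46, 10.30 and 10.01 at the 10 nm high dose and 10.42, 10.35 and 10.19 at the 500 nm high dose. Both high doses lay below the untreated arrays, and the 10 nm low dose (10.56, 10.76 and 10.52) overlapped with them. Ctsh fell by 0.36 ± 0.12 at the 10 nm high dose (limma adjusted p = 0.0392). The call ended after centring (-0.25, adjusted p = 0.0907) or rescaling (-0.09, 0.449), with replicates 1 and 2 alone (-0.30, 0.0864), and without 10 nm replicate 2 or 3 or untreated replicate 1 or 2 (0.067 to 0.214).

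The other 8 proteases, Ctsa, Ctsb, Ctsc, Ctsd, Ctsk, Ctsz, Lgmn and Tpp1, were not called at any dose. Ctsd, the aspartic protease cathepsin D, measured 10.91 ± 0.79 in untreated cells (SD, n = 3), and Ctsz, the carboxypeptidase cathepsin Z, 12.29 ± 0.77. Those spreads were larger than any of their changes. Ctsk encodes the collagen-digesting cathepsin K of osteoclasts and was dim throughout, at 5.01 ± 0.29 in untreated cells and 5.57 ± 0.35 at the 10 nm high dose (limma adjusted p = 0.0775, overlapping arrays; 0.00137 with the replicate block).

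**Figure D2:**
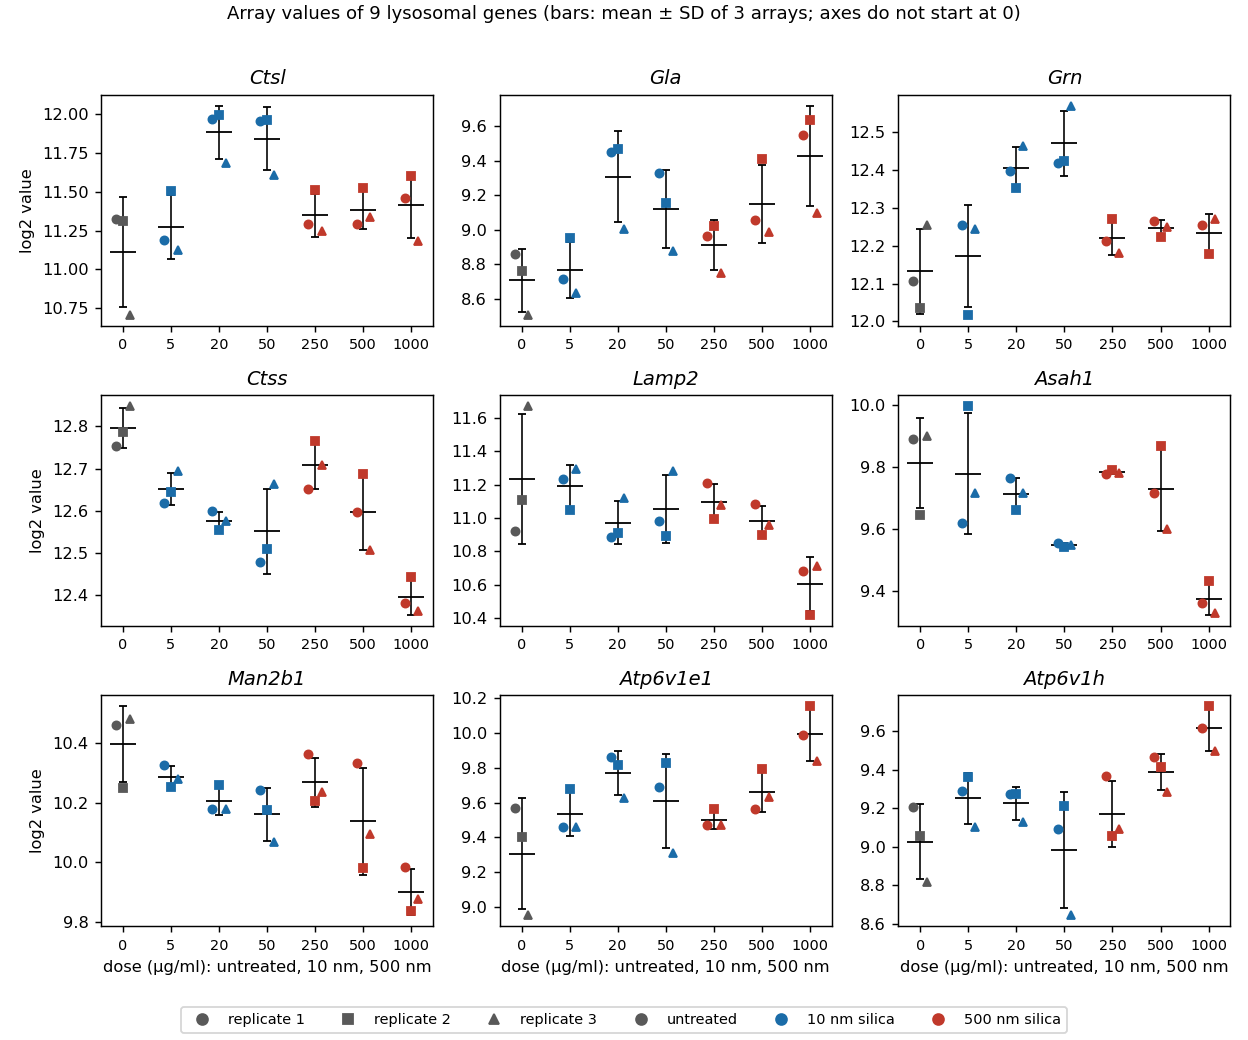
Log2 values of 9 lysosomal genes on each of 21 arrays (points), with bars for the mean ± SD of 3 arrays, by dose in µg/ml for untreated cells (0), 10 nm and 500 nm particles; the vertical axes do not start at 0. Ctsl is above the untreated arrays at 20 and 50 µg/ml of 10 nm particles, and Man2b1 and Asah1 are lowest at 1000 µg/ml of 500 nm particles.

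Of the 7 enzymes that act on sugar chains, 1 was higher at the 10 nm mid dose, none was called at the 10 nm high dose and 1 was higher and 2 lower at the 500 nm high dose. Over all genes 10.6%, 20.2% and 15.3% were called at those doses. At the 10 nm high dose limma gave 4 of 7 an unadjusted p below 0.05, against 4376 of all 12393 genes. Gla encodes alpha-galactosidase A, which removes terminal galactose from glycolipids, and its promoter window holds a pair of TCACGTGA motifs. Its values were 8.86, 8.76 and 8.50 in untreated cells. With 10 nm particles they were 8.71, 8.95 and 8.63 at the low, 9.45, 9.47 and 9.003 at the mid and 9.33, 9.16 and 8.88 at the high dose. With 500 nm particles they were 8.96, 9.02 and 8.75, then 9.05, 9.41 and 8.99, then 9.55, 9.64 and 9.10. The low doses overlapped with untreated cells, and every array of the mid and high doses of either size lay above the untreated arrays.

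Gla rose by 0.72 ± 0.17 at the 500 nm high dose (1.65-fold, limma adjusted p = 0.00597), and this call remained without any 1 array. At the 10 nm mid dose it rose by 0.60 ± 0.17 (1.52-fold, adjusted p = 0.0269), and that call ended without 10 nm replicate 1 or 2 or untreated replicate 2 or 3 (0.0515 to 0.127). The change at the 10 nm high dose was 0.41 (adjusted p = 0.0923), with no overlap. It was called there with the replicate block (0.00424), under quantile normalization (0.0126), centring (0.0291) and rescaling (0.00303), on the mean of its probe sets (3.14e-06), with array weights (0.00273) and with replicates 1 and 2 alone (0.0343). A second probe set of Gla gave 1.59 after 20 µg/ml of 10 nm, 1.49 after 50 µg/ml of 10 nm and 0.86 after 1000 µg/ml of 500 nm particles.

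Man2b1 encodes lysosomal alpha-mannosidase. Its values were 10.46, 10.25 and 10.48 in untreated cells and 9.98, 9.83 and 9.88 at the 500 nm high dose, with no overlap. At the 10 nm high dose they were 10.24, 10.17 and 10.07. Man2b1 fell by 0.50 ± 0.10 at the 500 nm high dose (limma adjusted p = 0.0017), and the call remained without any 1 array. After rescaling the change was -0.30 (adjusted p = 0.0728). A second, dimmer probe set gave -0.71, -1.22 and -0.70 with rising 10 nm dose, and -0.67, -1.44 and -1.40 with rising 500 nm dose. On the mean of its probe sets Man2b1 was also called lower at the 10 nm low, mid and high doses (limma adjusted p = 0.0332, 2.13e-05 and 0.001). The same held at the 500 nm mid dose (7.65e-06). Gusb, beta-glucuronidase, measured 11.57, 11.49 and 11.52 in untreated cells and 11.28, 11.26 and 11.16 at the 500 nm high dose, also with no overlap. It fell by 0.29 ± 0.093 (adjusted p = 0.0383), a call that ended without any 1 of the 6 arrays (0.0619 to 0.138), after centring (0.11) or rescaling (0.667), and on the mean of its probe sets (0.72), where the other probe set gave -0.04. Glb1, Hexa, Galns and Naglu were not called at any dose.

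Of the 5 genes of lipid degradation, 1 was lower at each high dose and none was higher. Over all genes 12.6% were lower at the 10 nm and 10% at the 500 nm high dose. All 5 lipid genes had a negative change at both high doses, with medians of -0.26 and -0.23. A positive change was measured for 53.9% and 59.9% of all genes there. Under quantile normalization 4 of the 5 were negative at each high dose, after centring 3 and 5, and after rescaling 3 and 3. Asah1 encodes acid ceramidase, which splits ceramide. Its values were 9.89, 9.65 and 9.90 in untreated cells, 9.56, 9.54 and 9.55 at the 10 nm high dose and 9.36, 9.43 and 9.33 at the 500 nm high dose. The arrays of both high doses lay below the untreated ones. Asah1 fell by 0.44 ± 0.10 at the 500 nm high dose (limma adjusted p = 0.00608), which remained without any 1 array but not after rescaling (-0.26, adjusted p = 0.0993) or with replicates 1 and 2 alone (-0.37, 0.0786).

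Lipa encodes acid lipase, which releases cholesterol and fatty acids from lipoprotein lipids. Its values were 10.98, 11.10 and 11.30 in untreated cells, 10.86, 10.74 and 10.71 at the 10 nm high dose and 10.85, 10.72 and 10.84 at the 500 nm high dose. Neither high dose overlapped with untreated cells, whereas the 500 nm low dose (11.32, 11.04 and 11.09) did. Lipa fell by 0.36 ± 0.11 at the 10 nm high dose (limma adjusted p = 0.0333). The call ended under quantile normalization (0.0916), centring (0.0919), rescaling (0.751), the mean of its probe sets (0.261), replicates 1 and 2 alone (0.207) and without 10 nm replicate 2 or 3 or untreated replicate 2 or 3 (0.0643 to 0.109). Psap, the precursor of the saposins, Smpd1, acid sphingomyelinase, and Ppt1, a thioesterase that removes fatty acids from proteins, were not called at any dose.

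Among the 5 membrane proteins and regulators, 1 was higher at the 10 nm high dose and 1 was lower at the 500 nm high dose. Over all genes 7.58% were higher at the 10 nm high dose and 10% lower at the 500 nm high dose. Grn encodes progranulin, a secreted protein that is also delivered to lysosomes. Its values were 12.11, 12.03 and 12.25 in untreated cells, 12.26, 12.02 and 12.24 at the 10 nm low, 12.40, 12.35 and 12.46 at the mid and 12.42, 12.43 and 12.57 at the high dose. With 500 nm particles they ran from 12.18 to 12.27 over all 9 arrays. The 10 nm mid and high doses lay above the untreated arrays, and all 500 nm doses overlapped with them. Grn rose by 0.34 ± 0.091 at the 10 nm high dose (1.26-fold, limma adjusted p = 0.0127), and the call ended without 10 nm replicate 3 (0.0581) or untreated replicate 2 (0.0626).

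Lamp2, a heavily glycosylated membrane protein needed for fusion of autophagosomes with lysosomes, measured 10.92, 11.11 and 11.67 in untreated cells. At the 500 nm high dose it measured 10.69, 10.42 and 10.71, and at the 10 nm high dose 10.98, 10.90 and 11.28. The 500 nm high-dose arrays lay below the untreated ones, and those of the 10 nm high dose overlapped with them. Lamp2 fell by 0.63 ± 0.16 at the 500 nm high dose (limma adjusted p = 0.00906). Untreated replicate 3 was the highest of all 21 arrays, and without it the change was -0.41 (adjusted p = 0.055); after rescaling it was -0.40 (0.173). Its other probe sets gave -0.33, -0.28 and -0.41.

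Lamp1, Mcoln1 and Tfeb were not called at any dose. Lamp1 measured 12.40 ± 0.040 in untreated cells and 12.24 ± 0.070 at the 500 nm high dose. Tfeb itself measured 7.22 in untreated cells and 7.04 at the 500 nm high dose (limma adjusted p = 0.258), with the treated arrays below the untreated ones.

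Of the 11 pump genes, 1 was higher at the 10 nm high dose, 1 at the 500 nm mid dose and 3 at the 500 nm high dose, and none was lower at any dose. All genes were called higher at rates of 7.58%, 1.26% and 5.31% at those doses. The median log2 change of the pump genes was 0.16, 0.24 and 0.18 with rising 10 nm dose and 0.20, 0.25 and 0.29 with rising 500 nm dose. A positive change was measured for 11, 11 and 10 of 11 with 10 nm and for 10, 11 and 10 of 11 with 500 nm particles. Of all genes 56.4%, 55.3% and 53.9% had a positive change with 10 nm particles, and 50.9%, 54.8% and 59.9% with 500 nm particles. The other 28 lysosomal genes had medians of 0.01, 0.03 and -0.08, and of 0.01, 0.03 and -0.14. The negative medians of these others turned at the 10 nm high dose under quantile normalization (0.03), centring (0.03) and rescaling (0.18), and at the 500 nm high dose after rescaling (0.02), while the pump medians stayed positive (0.21 to 0.52). With replicates 1 and 2 alone the pump median was 0.13 at the 10 nm high dose, positive in 11 of 11, and 0.27 at the 500 nm high dose, positive in 10 of 11. Without untreated replicate 3 it was 0.14, positive in 7 of 11, and 0.25, positive in 10 of 11. At the low doses the pump median was 0.10 and 0.08 for 10 nm and 500 nm with replicates 1 and 2 alone, and 0.05 and 0.03, positive in 10 and 8 of 11, without untreated replicate 3.

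The mean over the 11 pump genes was 10.50, 10.50 and 10.31 on the untreated arrays and 10.79, 10.79 and 10.76 on the 500 nm high-dose arrays. These did not overlap, and the lowest value was that of untreated replicate 3. The mean over the other 28 genes was 10.19 ± 0.11 in untreated cells and 10.10 ± 0.080 at the 500 nm high dose (SD, n = 3).

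**Figure D3:**
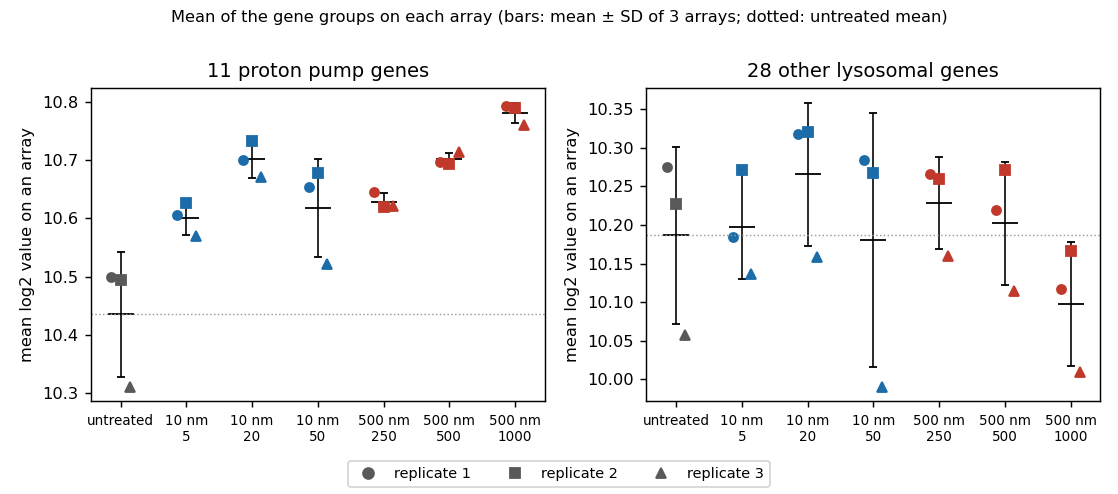
Mean log2 value of the pump genes (11) and of the other lysosomal genes (28) on each array, by group, with points marked by replicate number, bars for the mean ± SD of 3 arrays and a dotted line at the untreated mean. The pump mean is 10.44 in untreated cells and 10.78 at the 500 nm high dose, while the group means of the other genes lie between 10.10 and 10.27.

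Most of the pump genes measured, and likewise most of those called, belong to the V1 sector, which holds the ATP-splitting head and its stalks. Whether calls differ between sectors was not tested. Atp6v1e1, a subunit of the peripheral stalk, measured 9.57, 9.40 and 8.95 in untreated cells and 9.99, 10.15 and 9.84 at the 500 nm high dose. At the 10 nm high dose it measured 9.69, 9.83 and 9.31. Untreated replicate 3 was the lowest of the 21 arrays, and the 500 nm high-dose arrays all lay above the untreated ones. Atp6v1e1 rose by 0.69 ± 0.15 at the 500 nm high dose (1.61-fold, limma adjusted p = 0.00324), and the call remained without any 1 array. Without untreated replicate 3 the rise is smaller.

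Atp6v1h, a regulatory subunit that couples the V1 and V0 sectors, measured 9.21, 9.05 and 8.82 in untreated cells. With 10 nm particles it measured 9.29, 9.36 and 9.10 at the low, 9.27, 9.28 and 9.13 at the mid and 9.09, 9.21 and 8.64 at the high dose. With 500 nm particles it measured 9.37, 9.05 and 9.09, then 9.47, 9.41 and 9.28, then 9.62, 9.73 and 9.50. The 500 nm mid and high doses lay above the untreated arrays, and the 10 nm high dose overlapped with them. Atp6v1h rose by 0.59 ± 0.14 at the 500 nm high dose (1.503-fold, limma adjusted p = 0.0062), and this call too remained without any 1 array. At the 10 nm high dose the change was -0.04.

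Atp6v1b2, a catalytic-head subunit, measured 10.69, 10.60 and 10.52 in untreated cells and 11.08, 11.06 and 10.73 at the 10 nm high dose, with no overlap. It rose by 0.35 ± 0.12 (limma adjusted p = 0.0411), and the call ended without any 1 array except 10 nm replicate 3 (0.0537 to 0.131). Atp6v1c1, another subunit of the V1 sector, measured 11.51, 11.49 and 11.59 in untreated cells and 11.87, 11.91 and 11.98 at the 500 nm mid dose, with no overlap. It rose by 0.39 ± 0.10 there (adjusted p = 0.0393), and the call ended without any 1 of the 6 arrays (0.06 to 0.169), after rescaling (0.175) and with replicates 1 and 2 alone (0.106). At the 500 nm high dose it measured 11.73, 11.81 and 11.87, also above every untreated array.

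In the V0 sector, Atp6v0e, a small membrane subunit, measured 11.46, 11.36 and 11.26 in untreated cells and 11.63, 11.70 and 11.61 at the 500 nm high dose. The groups did not overlap, and the 10 nm mid (11.65, 11.69 and 11.47) and high doses (11.54, 11.55 and 11.57) lay above the untreated arrays as well. Atp6v0e rose by 0.29 ± 0.085 at the 500 nm high dose (limma adjusted p = 0.0276), and the call ended with replicates 1 and 2 alone (0.0961) and without 500 nm replicate 1 or 2 or untreated replicate 2 or 3 (0.0596 to 0.0985). Atp6v0b, part of the proton-carrying ring, was next to the threshold at the 500 nm high dose (0.28 ± 0.096, adjusted p = 0.0525), with no overlap.

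Atp6v0d1, Atp6v1a, Atp6v1d, Atp6v1f and the accessory subunit Atp6ap1 were not called at any dose. Atp6v1f, a subunit of the central stalk, measured 11.10, 11.10 and 9.81 in untreated cells, 11.11, 11.14 and 10.15 at the 10 nm high dose and 11.44, 11.44 and 11.13 at the 500 nm high dose. The values of 9.81 and 10.15 came from the arrays with the high 3′ excess.

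The genes with TCACGTGA in the promoter window were compared with those without it, 7 against 25 among the 32 that have both a window and a value. Of the 7, Atp6v0d1, Atp6v0e and Atp6v1a are pump genes, so this split overlaps with the split by role. The part of role in it was not tested. A positive change was measured for 7, 7 and 7 of 7 with rising 10 nm dose, and for 6, 7 and 7 of 7 with rising 500 nm dose. Without the motif it was measured for 14, 15 and 12 of 25, and for 15, 14 and 10 of 25. Over all genes it was measured for 56.4%, 55.3% and 53.9%, and for 50.9%, 54.8% and 59.9%. The medians with and without were 0.19 and -0.08 at the 10 nm high dose and 0.22 and -0.13 at the 500 nm high dose. After rescaling they were 0.52 and 0.23, and 0.45 and 0.11, so the median without the motif changed sign. Among the 7, only Gla and Atp6v0e were called. With replicates 1 and 2 alone the change was positive for 5, 7 and 7 of 7 with 10 nm and for 4, 6 and 6 of 7 with 500 nm particles, and with array weights for 4, 7 and 6, and 3, 5 and 5. The genes share 1 set of untreated arrays and the split was made after the values were seen, so it is a description without a test.

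**Figure D4:**
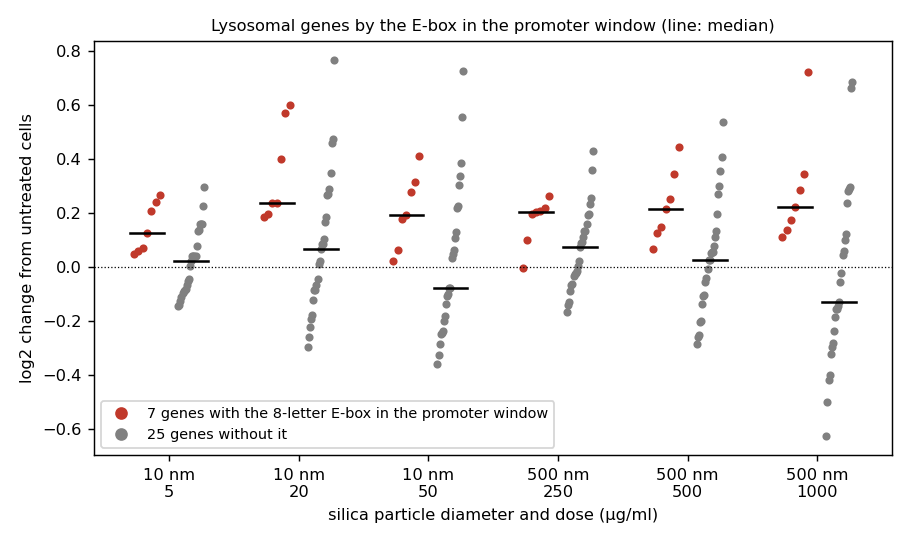
Log2 change from untreated cells (vertical axis) of lysosomal genes with (7) and without (25) TCACGTGA in the promoter window, at each particle diameter and dose in µg/ml; points are genes and lines are medians. At the 500 nm high dose all 7 genes with the motif lie above 0, and 10 of the 25 without it do.

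Particle sizes were compared directly at the high doses, 50 µg/ml of 10 nm against 1000 µg/ml of 500 nm. Mass doses therefore differ, and the nominal surface area of the 10 nm dose, for smooth spheres of one density, is 10 against 4 in units of the low dose. Of 39 genes, 1 was called, against 7.52% of all genes (3.37% higher after 10 nm, 4.15% lower). Atp6v1h was lower after 10 nm (8.98 ± 0.30) than after 500 nm particles (9.61 ± 0.12; SD, n = 3), by -0.63 (95% interval -0.92 to -0.34, limma adjusted p = 0.00755), with no overlap between arrays, and this call remained without any 1 array. With the replicate number as a block, which was taken as pairing the arrays here, 8 genes were called, 4 higher and 4 lower after 10 nm particles. Of all genes 16.7% were called with the block. Replicate 1 of the 10 nm arrays correlated best with 500 nm replicate 2, so pairing is an assumption here too. Without the block, an unadjusted limma p below 0.05 was reached by 8 of 39 genes, against 2515 of all 12393.

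Ctsl was 0.43 higher after 10 nm particles (95% interval 0.08 to 0.77, limma adjusted p = 0.139) and Lamp2 0.45 higher (0.12 to 0.77, adjusted p = 0.0957). Neither passed the threshold in the fit with group as the only factor. Lamp1, Man2b1, Grn and Tfeb also had intervals above 0, with differences of 0.19, 0.26, 0.24 and 0.25, and Atp6v1e1 had one below 0, with -0.38. Gla differed by -0.31 (-0.67 to 0.05) on the probe set used and by 0.62, the other way, on its second probe set. With the replicate block Ctsl (limma adjusted p = 0.00811), Ctsk (0.0155), Lamp2 (0.0181) and Man2b1 (0.048) were called higher after 10 nm particles. Atp6v1e1 (0.0224), Naglu (0.0319) and Gla (0.0426) were called lower, beside Atp6v1h. Of these 8 genes Atp6v1h alone was called in the fit with group as the only factor. Rescaling also called Ctsl (limma adjusted p = 0.0121), and Man2b1 was called under quantile normalization (0.043) and on the mean of its probe sets (0.00228). Of the 8, array weights added Ctsl, Lamp2, Man2b1, Gla and Atp6v1e1 (0.000118 to 0.042). The other probe sets of Lamp2 gave 0.21, 0.13 and 0.19, that of Man2b1 0.70, and those of Atp6v1e1 0.21 and -0.37, so for Atp6v1e1 too they differ in sign.

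**Figure D5:**
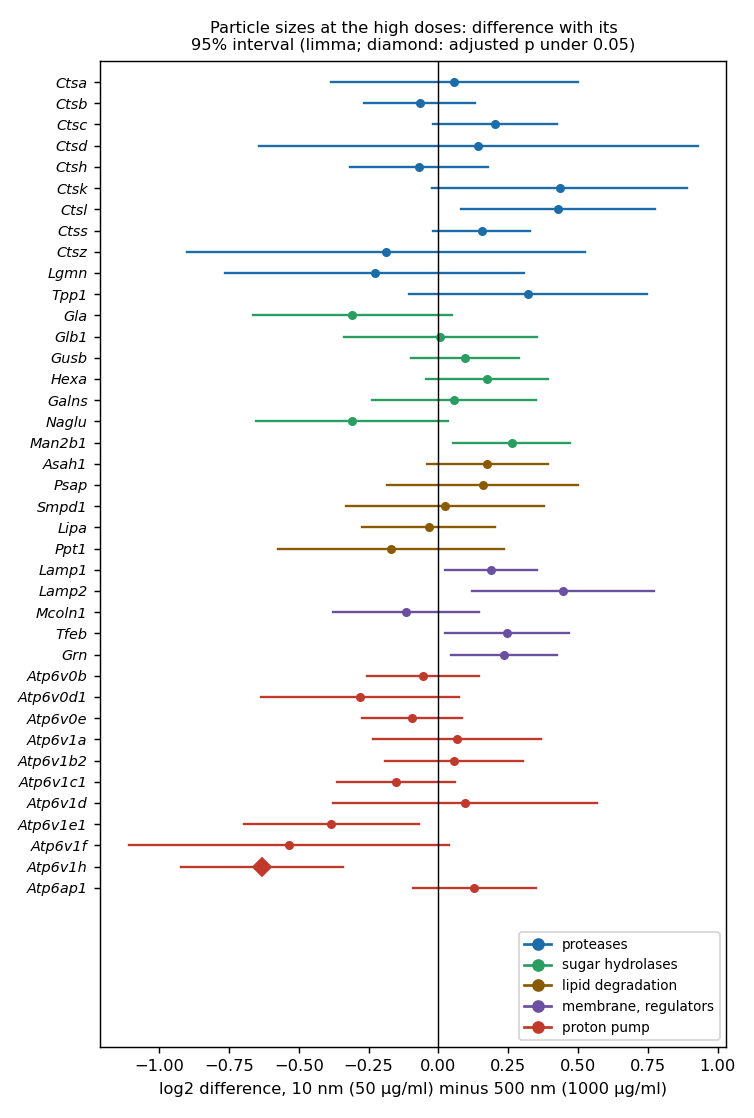
Log2 difference, 10 nm at 50 µg/ml minus 500 nm at 1000 µg/ml (horizontal axis), of lysosomal genes in rows, with its 95% interval from limma; a diamond marks an adjusted p under 0.05. Atp6v1h, at -0.63, carries the only diamond.

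At equal nominal surface area, 4 times that of the low dose, 20 µg/ml of 10 nm particles was compared with 1000 µg/ml of 500 nm particles. Of 39 genes, limma called 0, against 2.85% of all genes (1.81% higher, 1.04% lower). In the same fit 8 of 39 had an unadjusted p below 0.05, against 1531 of all 12393 genes. The 8 were Ctsc, Ctsl, Ctss, Lamp1, Lamp2, Asah1, Man2b1 and Atp6v1h. Ctsl was 0.47 higher, Lamp2 0.37 higher, Asah1 0.34 higher and Atp6v1h 0.39 lower (-0.39) after 10 nm particles. Rescaling the arrays called 1 gene, the replicate block 3 and array weights 10. Of all genes they called 3.16%, 6.37% and 18.2%.

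Neighbouring genes of the pathway came from lists drawn up by function. Of 44 other lysosomal genes measured, 2 were higher and 3 lower at the 10 nm high dose and 3 higher and 6 lower at the 500 nm high dose. These are 11.4% and 20.5% of the list, against 20.2% and 15.3% of all genes. The split at the 10 nm high dose was 4 and 1 after centring and 9 and 1 after rescaling, and at the 500 nm high dose 5 and 5 under both. Acp5, tartrate-resistant acid phosphatase, rose by 0.93 ± 0.14 at the 500 nm high dose (limma adjusted p = 9.65e-05). Sumf1, which activates sulfatases, fell by 0.84 ± 0.14 (adjusted p = 0.000201), and Manba, beta-mannosidase, by 0.72 ± 0.16 (0.00349). The median of this list was -0.07 at the 500 nm high dose and turned to 0.02 after centring and 0.08 after rescaling.

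Of 32 genes of enzyme sorting, the TFEB network, autophagy and membrane damage, 8 were higher and 5 lower at the 10 nm high dose and 3 higher and 3 lower at the 500 nm high dose. These are 40.6% and 18.8% of the list, against 20.2% and 15.3% of all genes. The split was 10 and 2, and 8 and 2, after centring, and 13 and 2, and 9 and 1, after rescaling. Sqstm1, the autophagy receptor p62, rose 3.07-fold at the 500 nm high dose (1.62 ± 0.33, limma adjusted p = 0.00182), with 0.69 at the 10 nm high dose (0.138). Trim16, a ubiquitin ligase that is recruited to damaged lysosomes, rose by 1.005 ± 0.13 at the 10 nm high dose (adjusted p = 2.45e-05), with 0.02 at the 500 nm high dose (0.939). That difference between sizes passed the test (0.99, adjusted p = 0.00011). Gabarapl1, an autophagosome protein, rose by 0.88 ± 0.13 at the 500 nm high dose (9.08e-05) and by 0.42 at the 10 nm high dose (0.0293), where the call ended on the mean of its probe sets (0.376) and without 10 nm replicate 1 or 2 or untreated replicate 2 or 3 (0.077 to 0.107).

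Cstb, the cytosolic inhibitor cystatin B that blocks cathepsins leaking from lysosomes, was called at 4 doses. Cstb rose by 0.53 and 0.52 at the 10 nm mid and high doses (limma adjusted p = 0.000731 and 0.00056) and by 0.41 and 0.45 at the 500 nm mid and high doses (0.0174 and 0.0024). The call at the 500 nm mid dose ended after rescaling (0.128), on the mean of its probe sets (0.0593), with replicates 1 and 2 alone (0.2), with only the 2 groups compared (0.24), and without 500 nm replicate 3 (0.119) or untreated replicate 1 or 3 (0.0652 and 0.0802). With only the 2 groups compared the calls at the 10 nm high dose (0.0554) and the 500 nm high dose (0.0723) ended as well.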

How the data were processed

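RNA of 21 arrays was labelled from oligo-dT primed cDNA and hybridised to an Affymetrix mouse array, per the labels' protocols, which favours 3′ ends. The deposited table gives each probe set 1 log10 value per array, which the authors made with RMA (so the submitters' processing notes); the sources used here give neither version nor settings. The base was read from the values and fold changes rest on it. A factor of 3.32 turned log10 into log2. RMA can remove a shift shared by most genes and compress changes of dim genes. Arrays have no depth. Precision is limited by how many there are.

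Of 22690 probe sets, the platform annotation, which can be old, gave 20393 a single symbol, 691 several and 1606 no symbol; the brightest single-symbol probe set stood for each of 12393 genes. Groups were taken from the sample labels. limma 3.58.1 in R 4.3.3 (lmFit, eBayes, two-sided) fitted all 21 arrays with group as the only factor (14 residual degrees of freedom), with 8 comparisons and Benjamini-Hochberg adjustment over all genes, after tests on simulated data. The alternatives were quantile normalization, median-centring, rescaling to a common SD, the mean of all probe sets, leaving out dim genes, a replicate block, only the 2 groups compared, array weights and leaving out 1 array. Replicates 1 and 2 alone were added after seeing the data.

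Members and lists were chosen with earlier results of these data known. Members called in a comparison are given on every array; from each neighbouring list up to 3 genes called at a high dose were named, those of largest change.

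The labels give the groups the same replicate numbers. Deviations from group means correlated over 0.1 in every same-numbered pair for the 10 nm mid and high doses against untreated cells (0.53, 0.43 and 0.68; 0.46, 0.53 and 0.72) and for the sizes at the high doses (0.28, 0.57 and 0.70), so the numbers were taken as pairing there, from the data. A correlation over 0.1 does not show pairing. Among these comparisons the best match carried the same number for every replicate only at the 10 nm mid dose.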

Additional observations from a re-analysis of the deposited data

Results flagged for a closer look

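The difference between particle sizes at the high doses passed the test for Atp6v1h, with -0.63 on the log2 scale for 10 nm minus 500 nm. The arrays of 500 nm cells lay above those of untreated cells, while those of 10 nm cells overlapped with them. The lowest of the 10 nm high-dose arrays, 8.64, was the replicate with the high 3′ excess, and the call remained without it.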

How the results depend on the processing

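Counts are of the 39 genes called. Only the 2 groups compared, with their own spread, called 0 at the 10 nm mid dose, 0 at the 10 nm high dose, 0 at the 500 nm mid dose, 1 at the 500 nm high dose and 0 between sizes at the high doses. Of all genes this setting called 5.31%, 5.58%, 1%, 6.14% and 1.32%. Array weights, whose estimation stopped before it converged, called 1, 11 and 17 at the 10 nm low, mid and high doses, 2, 8 and 22 at those of 500 nm, 18 between sizes at the high doses and 10 at equal area. Of all genes they called 9.84%, 25.4% and 50.5%, then 2.99%, 18.7% and 39.2%, then 38.5% and 18.2%. With the replicate block, 10 and 15 were called at the mid and high 10 nm doses, 3 and 18 at the 500 nm mid and high doses, 8 and 3 between sizes, and ended no call. Of all genes the block called 18% and 36.7%, 5.73% and 27.7%, and 16.7% and 6.37%. Where the numbers were not taken as pairing the arrays (500 nm and the low doses), the block gives only how the count moved. Over 63 same-numbered pairs the correlation ran from -0.24 to 0.76, with 51 over 0.1. The mean of all probe sets called 1, 6, 1 and 3 at the 10 nm low, 10 nm mid, 500 nm low and 500 nm mid doses and 3 between sizes at the high doses. Of all genes it called 0.831%, 11.6%, 0.476%, 3.28% and 7.35%. Rescaling to a common SD called 9 and 13 at the 10 nm mid and high doses, and 2 and 1 between sizes. Of all genes it called 9.72% and 21.2%, and 8.27% and 3.16%. Quantile normalization called 7 at the 10 nm mid dose and 3 between sizes, centring 7 and leaving out dim genes 5 at the 10 nm mid dose, and replicates 1 and 2 alone 0 at the 500 nm mid dose. The shares of all genes tested were, in that order, 9.42%, 8.7%, 9.92%, 15.2% and 2.11%. Leaving out 1 array gave 1 to 4 and 2 to 6 at the 10 nm mid and high doses, 0 at both low doses and the 500 nm mid dose, 6 to 9 at the 500 nm high dose, 1 between sizes and 0 at equal area. Of 465 alternative values for 31 named gene and comparison pairs, 353 kept the call and direction, 111 lost the call and 1 turned sign, Ctss at the 10 nm high dose after rescaling, with 0.13. The causes were not tested. With 3 arrays a group, small changes and dim genes such as Ctsk are poorly resolved.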

Other observations

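Among the markers used to check the cell type, Ocstamp, which acts in the fusion of osteoclast precursors, was higher at the 10 nm high dose (0.94) and at the 500 nm high dose (0.72). Tnfrsf11a, the receptor for the osteoclast factor RANKL, was lower at the 500 nm high dose (-0.48, limma adjusted p = 0.0317) and not called at the 10 nm high dose (-0.25). Mpeg1, a pore-forming protein of macrophages, was lower at both high doses (-0.40 and -0.37; limma adjusted p = 0.00434 and 0.00999). These genes were singled out after their values were seen.

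Of the 7 inhibitors of lysosomal proteases measured, Cst6, a secreted cystatin, was also called at the 10 nm high dose (0.29, limma adjusted p = 0.0459), with arrays that overlapped with the untreated ones and an adjusted p of 0.803 after quantile normalization.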
